A study of Mus musculus with 10 samples.

Results

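Genes of the epithelial sodium channel (ENaC) and of the aldosterone axis that controls it were followed through mouse kidney organoids and adult collecting duct cells. They were taken by gene symbol and are 8 of the 39273 genes listed. Scnn1a, Scnn1b and Scnn1g encode the alpha, beta and gamma subunits of the channel, Nr3c2 the mineralocorticoid receptor, Hsd11b2 the enzyme that inactivates glucocorticoids, Sgk1 a kinase, Nedd4l a ubiquitin ligase and Prss8 the membrane-anchored protease prostasin.

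RNA-seq was done on 10 libraries in 5 groups of 2. Ureteric bud (UB) organoids were grown from E11.5 ureteric buds of Wnt11-RFP +/- mice of a C57BL/6 x Swiss Webster background and were collected after 5, 10 or 20 days in mUBCM, a medium with GDNF, FGF9, Rspo1, LDN-193189, TTNPB, CHIR99021, JAK inhibitor I, A83-01 and SB202190. Collecting duct (CD) organoids were day 10 UB organoids kept for a further week in CDDM, a medium that holds aldosterone and vasopressin beside FGF9 and the inhibitors PD0325901, DAPT and Y27632, so that aldosterone was added together with several other changes and its part cannot be told apart from theirs. Adult mCD cells were sorted by Hoxb7-Venus from kidneys of 2-month-old mice according to the series' design and the study's methods, although the sample labels describe them as embryonic Wnt11-RFP organoids. No source used here says whether the 2 libraries of a group came from separate animals or cultures, so that p-values measure the spread between these libraries only.

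In the aldosterone-sensitive distal nephron and collecting duct, ENaC in the apical membrane of principal cells (PC) carries sodium into the cell, and the sodium pump moves it on into the blood. Aldosterone binds the mineralocorticoid receptor, which enters the nucleus and raises transcription of target genes, among them Sgk1 and, in kidney, Scnn1a. SGK1 phosphorylates NEDD4-2, the product of Nedd4l, which otherwise removes channels from the membrane, while proteases including prostasin cleave the alpha and gamma subunits and increase channel activity.

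The libraries held between 11913613 and 24536676 counts. Levels are given as CPM, the usual measure of a gene's counts relative to the library total, scaled with edgeR's TMM factors, which lay between 0.999 and 1.12 in organoids and between 0.792 and 0.793 in adult mCD. Detection was set at 3 counts per library, equal to 0.109 to 0.241 CPM and covering counting error only, and every member was above it in each library. Mitochondrial transcripts took 0.969% to 1.58% of counts at days 5 and 10, 3.10% to 3.40% at day 20 and in CD organoids, and 9.64% to 9.86% in adult mCD. The summed level of 4 Y-linked genes was under 1 CPM in the 4 libraries of days 5 and 10 and between 229.8 and 295 CPM in the other 6. The same 4 libraries were the deepest, at 22858971 to 24536676 counts against 11913613 to 16759872 in the other 6, and had the lowest mitochondrial shares. Differences in donor sex, or in anything else along this split, therefore cannot be told apart from any comparison across it. These are the comparisons of day 5 or day 10 with day 20, CD organoids or adult mCD. They include the rises from day 5 to day 20. Day 20, CD organoids and adult mCD all held Y-linked transcripts. As the day 10 libraries held next to none, the sequenced day 10 cultures are not a matched start of the sequenced CD organoids. In such bulk samples, fewer cells of a type and less RNA per cell cannot be told apart.

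Scnn1a, the subunit without which little current flows, was the member with the largest rise in CD organoids over UB organoids of day 10 and of day 20. Its level was 4.10 and 4.57 CPM at day 5, 1.31 and 2.59 CPM at day 10, 2.91 and 4.56 CPM at day 20, 161 and 165 CPM in CD organoids and 976 and 904 CPM in adult mCD. All 6 UB libraries were thus low, both CD organoid libraries were above every UB library, and both adult libraries were higher still. Against day 10, the edgeR quasi-likelihood test gave a log2 fold change of 6.33 ± 0.19 (approximate SE, n = 2 per group) with a Benjamini-Hochberg adjusted p of 1.87e-11.

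Scnn1b, the beta subunit, was already present in the UB organoids. It stood at 38.2 and 59.1 CPM at day 5, 82.3 and 61.6 CPM at day 10, 56.1 and 72.4 CPM at day 20, 312 and 339.8 CPM in CD organoids and 885 and 829 CPM in adult mCD. The 3 UB groups overlapped in their order of levels, while CD organoids lay above all of them and below adult mCD. Its log2 fold change in CD organoids over day 10 was 2.18 ± 0.18, with an adjusted p of 2.38e-07 in the edgeR test.

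Scnn1g, the gamma subunit, followed another course. It measured 87.7 and 145.8 CPM at day 5, 90.4 and 52.0 CPM at day 10, 39.9 and 46.3 CPM at day 20, 119.6 and 128 CPM in CD organoids and 749.6 and 719 CPM in adult mCD. CD organoids overlapped the range of day 5, and both adult libraries were far above all others. The change from day 10 to CD organoids was 0.80 ± 0.23 on the log2 scale and did not pass, at an adjusted p of 0.0105 in the edgeR test. This call lay at the edge of the threshold. It passed without day 10 replicate 1, at 1.27 with an adjusted p of 9.92e-06, and also with the replicate number as a block (adjusted p = 0.0087) and with RLE size factors (0.00642). Against day 20, Scnn1g rose by 1.52 ± 0.24 in log2 (edgeR adjusted p = 0.000131).

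**Figure D1:**
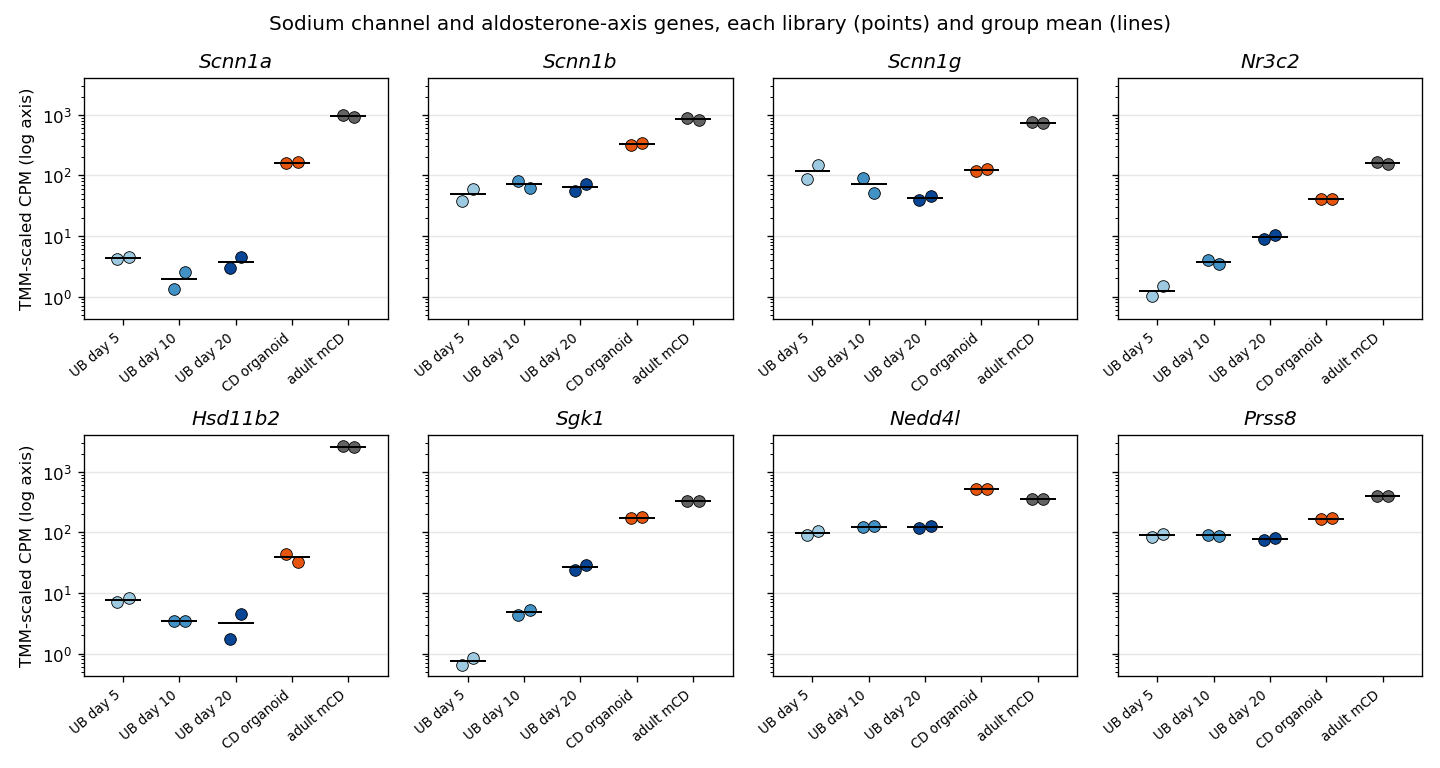
TMM-scaled CPM on a log axis for the 8 genes in each of the 10 libraries (points, 2 per group), with the mean of each group as a line. Scnn1a goes from at most 4.57 CPM in the 6 UB libraries to 161 and 165 CPM in CD organoids, Hsd11b2 in CD organoids stays far below adult mCD, and Nedd4l is highest in CD organoids.

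Scnn1g and Scnn1b are neighbours on chromosome 7 in the same direction (GRCm38, chr7:121734479-121768475 and chr7:121865038-121918514), whereas Scnn1a lies on chromosome 6 (chr6:125320659-125344943). The 250 bases before the RefSeq start of each of the neighbours (GRCm38.p6, plus strand, chr7:121734229-121734478 and chr7:121864788-121865037) are shown because these genes sit side by side and yet differed in their course. Capitals mark GGGCGG, the GC box, on either strand, which 32.7% of the 32851 RefSeq windows of this kind hold.
Scnn1g: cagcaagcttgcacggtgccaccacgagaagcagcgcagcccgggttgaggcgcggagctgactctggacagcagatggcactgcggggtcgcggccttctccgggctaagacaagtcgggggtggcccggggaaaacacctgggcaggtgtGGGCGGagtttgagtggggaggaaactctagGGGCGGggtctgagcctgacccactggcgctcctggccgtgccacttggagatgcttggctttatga
Scnn1b: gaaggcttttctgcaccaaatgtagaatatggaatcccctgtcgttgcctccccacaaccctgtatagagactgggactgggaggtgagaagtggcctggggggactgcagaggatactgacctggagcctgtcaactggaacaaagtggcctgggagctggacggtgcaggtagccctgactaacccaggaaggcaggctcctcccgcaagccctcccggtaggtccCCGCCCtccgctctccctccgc
Both windows were rich in G and C, at 65.2% and 60.8% against a median of 52.4% over all windows. Neither window held AGAACA, the half-site bound by corticosteroid receptors, on either strand. RefSeq windows were searched for 4 of the 8 members, which are Scnn1b, Scnn1g, Nr3c2 and Sgk1. No window of Scnn1a, Hsd11b2, Nedd4l or Prss8 was searched. This count therefore does not tell whether those genes, Nedd4l among them, have a RefSeq window.

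Levels of different genes were compared per kilobase of merged exons, since the lengths behind the deposited RPKM add up all transcripts of a gene and are 4.42 times the merged exons for Scnn1a and 1.00 times for Scnn1g. On this per-length scale, Scnn1a made up between 0.512% and 2.5% of the 3 subunits together in the 6 UB libraries, 19.7% and 18.9% in CD organoids and 28.7% and 28.3% in adult mCD. The alpha share of CD organoids thus lay above every UB library and below both adult libraries. Gamma was the most abundant subunit at day 5, at 2.02 and 2.17 times beta, and was lower than beta in every later library. Gamma stood at 0.967 and 0.744 times beta at day 10, 0.627 and 0.564 times at day 20, 0.338 and 0.333 times in CD organoids and 0.746 and 0.764 times in adult mCD. Relative to alpha, gamma was near equal in CD organoids, at 1.03 and 1.07, and in adult mCD, at 1.06 and 1.10.

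The ratios were tested on log2 of the deposited RPKM plus 0.1, with the 2 libraries of CD organoids or of adult mCD set against the 6 UB libraries, which come from 3 days and are not replicates of one condition. The log2 ratio of Scnn1b to Scnn1a differed from UB organoids by -2.62 in CD organoids (mean 2.71 against 5.33), and that of Scnn1g to Scnn1a by -4.22 (2.20 against 6.42). In adult mCD the same differences were -3.74 and -4.17. The deposited length of Scnn1a is 4.42 times its merged exons, so that these ratios themselves are not those of the per-length scale. Only their differences between groups are read here. The pseudocount of 0.1 is of the size of the deposited RPKM of Scnn1a in the UB libraries, 0.0731 to 0.259. With a pseudocount of 1, which weighs on the low Scnn1a values, the 4 differences were -0.76, -2.29, -1.79 and -2.16. In each of the 4 tests the groups did not overlap, and the exact two-sided permutation test on the absolute difference gave p = 0.0357, the smallest that 28 splits allow, also after adjustment over the 4 tests. When the two-sided p was instead taken as the smaller tail doubled, the exact permutation p was 0.0714 in all 4 tests and none passed 0.05. The plan gave an exact two-sided test with the smallest p that 28 splits allow, but did not name the absolute difference. The doubled value had been seen before the absolute difference was used. Both are therefore given, and the call depends on that definition.

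**Figure D2:**
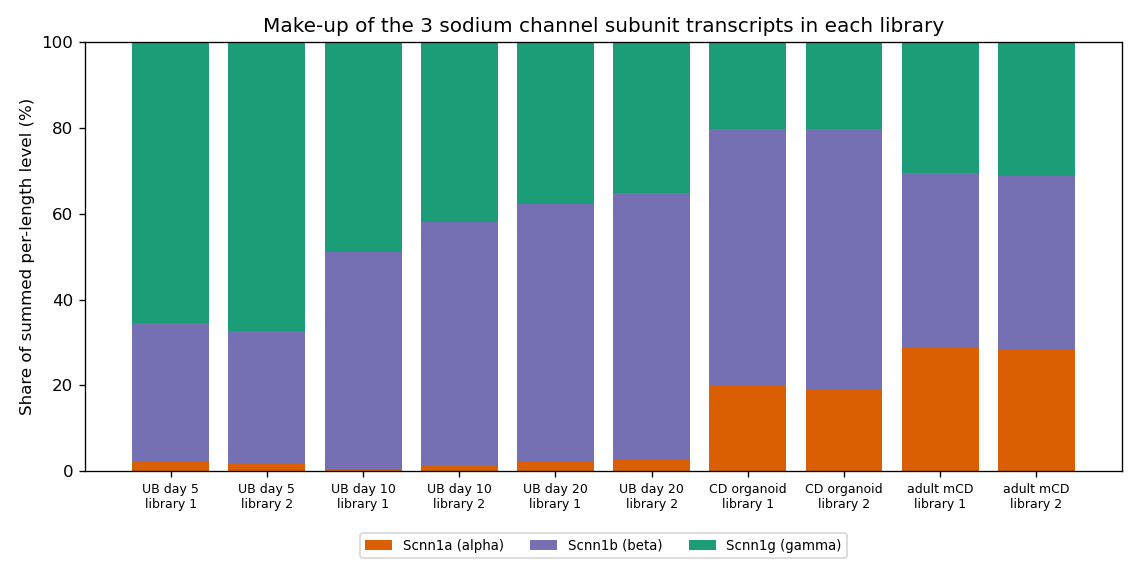
Share of each ENaC subunit in the summed per-length level of the 3 subunits (percent, stacked to 100) in each of the 10 libraries. Scnn1a takes 0.512% to 2.5% in UB organoids, 19.7% and 18.9% in CD organoids and 28.7% and 28.3% in adult mCD.

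Nr3c2, the mineralocorticoid receptor, rose at each step of the series. It measured 1.03 and 1.47 CPM at day 5, 4.08 and 3.39 CPM at day 10, 9.04 and 10.4 CPM at day 20, 40.6 and 41.5 CPM in CD organoids and 166 and 154 CPM in adult mCD. No neighbouring groups overlapped in this order. From day 5 to day 20 the log2 fold change was 2.91 ± 0.17 (edgeR adjusted p = 2.04e-08). The methods list no added aldosterone for this medium, and the part of the hormone in this rise was not tested. From day 20 to CD organoids it was 2.07 ± 0.12 (edgeR adjusted p = 7.51e-09). A part of its exons overlaps Gm10649 on the opposite strand, so that reads of both may be mixed if counting ignored strand.

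Hsd11b2, which keeps glucocorticoids from occupying the mineralocorticoid receptor, stood furthest from the adult level. It was at 7.13 and 8.33 CPM at day 5, 3.45 and 3.50 CPM at day 10, 1.76 and 4.56 CPM at day 20, 44.6 and 32.8 CPM in CD organoids and 2634 and 2573 CPM in adult mCD. CD organoids were above all UB libraries, by 3.46 ± 0.22 in log2 over day 10 (edgeR adjusted p = 1.95e-08), but reached 1.49% ± 0.32 (SD, n = 2) of the adult mean. On the per-length scale Hsd11b2 was the highest of the 8 members in adult mCD and ranked 7 of 8 in CD organoids.

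Sgk1 had the largest fold change of the 8 members within the UB organoids, from day 5 to day 20. Its level was 0.640 and 0.857 CPM at day 5, 4.32 and 5.29 CPM at day 10, 24.2 and 29.4 CPM at day 20, 169.8 and 178 CPM in CD organoids and 331 CPM in both adult libraries. The 5 groups did not overlap and kept this order. The log2 fold change was 5.06 ± 0.16 from day 5 to day 20 (edgeR adjusted p = 2.06e-10) and 2.70 ± 0.10 from day 20 to CD organoids (edgeR adjusted p = 1.79e-10). With 52.6% ± 1.8 (SD, n = 2) of the adult mean, CD organoids came nearer to adult mCD in Sgk1 than in any other member that was below it.

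Sgk1 has 6 RefSeq windows on chromosome 10 (GRCm38.p6, plus strand), of which 2 are shown. That at chr10:21993640-21993889 holds the full palindrome of a corticosteroid receptor element, and that at chr10:21994416-21994665 is the one of the 2 windows with TATAAA that also holds GC boxes. Capitals mark AGAACA on either strand, the full palindrome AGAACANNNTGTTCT, GGGCGG on either strand and TATAAA.
Sgk1 window with the palindrome: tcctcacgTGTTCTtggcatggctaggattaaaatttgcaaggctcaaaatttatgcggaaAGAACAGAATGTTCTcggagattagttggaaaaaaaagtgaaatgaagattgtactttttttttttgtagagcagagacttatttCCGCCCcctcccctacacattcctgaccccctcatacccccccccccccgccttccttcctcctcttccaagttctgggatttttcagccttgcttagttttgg
Sgk1 window with TATAAA and GC boxes: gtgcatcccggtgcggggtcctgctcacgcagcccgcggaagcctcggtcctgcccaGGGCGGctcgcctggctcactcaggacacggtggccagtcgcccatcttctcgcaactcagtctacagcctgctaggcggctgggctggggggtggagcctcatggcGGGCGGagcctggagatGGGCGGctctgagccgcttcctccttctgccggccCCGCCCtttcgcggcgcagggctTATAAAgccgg
The palindrome, which contains 2 of the half-site matches of its window, begins 189 bases before the start and occurs in 3 of the 32851 RefSeq windows (0.00913%). The half-site alone occurs in 16.1% of windows, and in 3 of the 6 Sgk1 windows. TATAAA occurs in 12.4%. The other Sgk1 window with TATAAA, at chr10:21991973-21992222, holds it 28 bases before the start and a half-site 13 bases before it. The counts are summed over the gene and do not tell these starts apart, and a match of letters is no evidence of binding.

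Nedd4l, the brake on the channel, was the one member higher in CD organoids than in adult mCD. It read 89.1 and 104.8 CPM at day 5, 120.9 and 127 CPM at day 10, 117 and 129.5 CPM at day 20, 523 and 521 CPM in CD organoids and 360.5 and 351 CPM in adult mCD. CD organoids stood above all 8 other libraries, by 2.08 ± 0.09 in log2 over day 10 (edgeR adjusted p = 3.02e-10) and by 0.55 ± 0.08 over adult mCD (edgeR adjusted p = 7.58e-05). Prss8, the activating protease, was present throughout. It was between 74.9 and 94.8 CPM in the 6 UB libraries, 168 and 169.6 CPM in CD organoids and 405 and 399 CPM in adult mCD. Its log2 fold change over day 10 was 0.92 ± 0.07 (edgeR adjusted p = 1.97e-07). Nedd4l overlaps exons of A330084C13Rik and Prss8 those of Kat8, each on the opposite strand.

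Counted together, 7 of the 8 members were higher in CD organoids than at day 10 at an adjusted p of at most 0.01 in the edgeR test, where 18.1% of the 24410 genes tested were higher, 19.8% lower and 37.8% changed in either direction. All but Prss8 among these 7 changed more than 4-fold, against 4.96% of all genes that rose so far. The median log2 fold change of the members was 2.81, and that of all genes -0.15. Against day 20, all 8 were higher, where 16.8% of genes were higher and 17.1% lower, and 6 more than 4-fold (4.74% of genes). The comparison with day 20 and that with day 10 share the CD organoid libraries. Cell type markers moved with these counts. The 8 PC markers summed to 54.2 and 42.1 CPM at day 10 and 1092 and 899 CPM in CD organoids, the 10 markers of intercalated cells (IC) to 128 and 154 against 2361 and 2243 CPM, and 6 stroma markers to 25.6 and 19.0 against 217 and 104 CPM. The 6 UB tip markers summed to 2568 and 2901 against 130.4 and 129 CPM, 5 loop of Henle markers to 2.97 and 2.52 against 6.12 and 11.6 CPM, and 8 markers of the distal convoluted and connecting tubule to 267 and 292 against 1202 and 1237 CPM. These last 8 did not move as one. In the edgeR test 4 of them rose, 3 did not pass and Trpm6 fell, with a log2 fold change of -1.89 ± 0.33 (adjusted p = 0.000312). Avpr2, the vasopressin receptor gene among the PC markers, was near the limit of detection in all 5 groups, at 0 in both CD organoid libraries and 0.151 and 0.314 CPM in adult mCD. Their part in the changes was not tested.

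**Figure D3:**
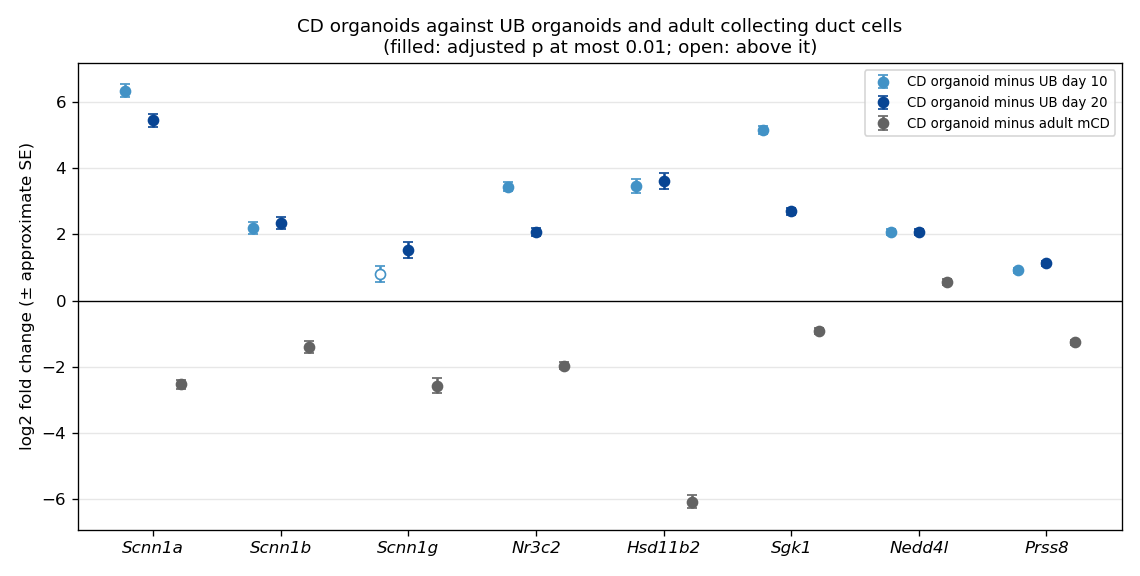
Log2 fold changes with approximate standard errors for the 8 genes in CD organoids against UB organoids of day 10 (light blue) and day 20 (dark blue) and against adult mCD (grey), 2 libraries per group, filled where the adjusted p is at most 0.01. All genes but Nedd4l lie above 0 against UB organoids and below 0 against adult mCD, and Nedd4l lies above 0 in all 3 comparisons.

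Set against adult mCD, 7 members were lower in CD organoids and Nedd4l was higher, where 21.6% of genes were lower and 18.6% higher at an adjusted p of at most 0.01. Of these, 3 were more than 4-fold lower, with log2 fold changes of -6.07 ± 0.20 for Hsd11b2, -2.57 ± 0.24 for Scnn1g and -2.53 ± 0.14 for Scnn1a, where 9.84% of genes were. As a share of the adult mean, CD organoids held 17.4% of Scnn1a, 38.0% of Scnn1b, 16.9% of Scnn1g, 25.7% of Nr3c2, 42.0% of Prss8 and 146.9% of Nedd4l. The adult libraries also held markers of other segments. Their summed levels in the adult libraries were 8195 and 10250 CPM for 8 proximal tubule genes, 5084 and 5353 CPM for 5 loop of Henle genes and 2880 and 3252 CPM for 8 genes of the distal convoluted and connecting tubule, against 7.33 and 17.6, 6.12 and 11.6, and 1202 and 1237 CPM in CD organoids. In adult mCD the PC markers summed to 9049 and 8710 CPM and the IC markers to 3449 and 3528 CPM. The part of these other cells in the differences was not tested.

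Against UB organoids, adult mCD were higher in all 8 members, where 26.7% of genes were higher than at day 10 and 25.4% than at day 20. The largest difference from day 20 was that of Hsd11b2, at 9.68 ± 0.26 in log2, followed by Scnn1a at 7.96 ± 0.19. The smallest was that of Nedd4l, at 1.53 ± 0.09.

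Within the UB organoids, 5 of the 8 members changed between day 5 and day 20, where 35.3% of genes did in the edgeR test, 16.1% upward and 19.2% downward. Sgk1, Nr3c2 and Nedd4l rose, while Scnn1g fell by 1.44 ± 0.24 (adjusted p = 0.000207) and Hsd11b2 fell by 1.30 ± 0.27 (adjusted p = 0.0015). Nedd4l, with a log2 fold change of 0.35 ± 0.09 (adjusted p = 0.00444), did not pass without day 5 replicate 1 (adjusted p = 0.0488) or day 20 replicate 2 (0.0602). Hsd11b2 did not pass without day 5 replicate 2 (adjusted p = 0.0133) or day 20 replicate 1 (0.0203). Scnn1b, which did not pass with all libraries, did so without day 5 replicate 2, at 0.75 in log2 (adjusted p = 0.0047). From day 5 to day 10, 5 members passed, where 22.3% of genes did, and from day 10 to day 20, Sgk1 and Nr3c2 did, where 18.7% did. Without day 10 replicate 2, 4 members passed at the latter step. More than 4-fold, Sgk1 changed at both of these steps (3.41% and 3.39% of genes) and Sgk1 and Nr3c2 from day 5 to day 20 (8.61% of genes).

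The other genes of the pathway were followed in lists. They are to be read beside the shares of all genes tested, which over day 10 were 18.1% higher, 19.8% lower and 4.96% more than 4-fold higher. The lists share genes, Tsc22d3, Cnksr3, Usp2 and Fkbp5 among them, so that their counts are not independent. Of the 13 further ENaC proteases and protease inhibitors, 11 were tested, and 9 rose and 1 fell in CD organoids over day 10 (edgeR adjusted p at most 0.01), with a median log2 fold change of 1.06. Tmprss4, a serine protease, was at 0.238 and 0.729 CPM at day 10, 28.1 and 29.4 CPM in CD organoids and 1.51 and 2.91 CPM in adult mCD, so that CD organoids were highest. Plau, the urokinase, was at 7.18 and 8.13 CPM at day 10, 56.9 and 46.0 CPM in CD organoids and 857 and 860.4 CPM in adult mCD. Serpine2, a protease inhibitor, fell by 2.73 ± 0.23 in log2 over the same step from day 10. Klk1, a kallikrein of the connecting tubule, was at 324 and 418 CPM in adult mCD and 0.214 and 0.802 CPM in CD organoids.

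Of the 20 further genes for channel ubiquitination and kinases, 13 rose and 3 fell in CD organoids over day 10, and none changed more than 4-fold. Their median log2 fold change was 0.43. Sgk2, a relative of Sgk1, was at 85.8 and 100.5 CPM in adult mCD and at 0.427 and 0.481 CPM in CD organoids. Of the 15 further genes for corticosteroid receptors, chaperones and ligand metabolism, 4 rose and 3 fell, beside 18.1% and 19.8% of all genes. H6pd, which supplies NADPH in the endoplasmic reticulum, went from 47.5 and 54.9 CPM at day 10 to 285.5 and 313 CPM in CD organoids, beside 278 and 291 CPM in adult mCD. Hsd11b1, which regenerates active glucocorticoid, was at 0.498 and 0.401 CPM in CD organoids and 11.8 and 14.9 CPM in adult mCD.

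Beside Sgk1, 13 genes known to respond to corticosteroids were listed, and 9 rose and 0 fell in CD organoids over day 10 (edgeR adjusted p at most 0.01), with a median log2 fold change of 1.15, where 18.1% of all genes rose and 19.8% fell. The count of falls was also 0 for the full list of 14. Zbtb16, a transcription factor, rose from 0.357 and 0.0729 CPM to 15.3 and 11.3 CPM, and Rasd1, a small GTPase, from 0.833 and 0.729 CPM to 27.9 and 30.7 CPM. Lcn2, a secreted lipid-binding protein, went from 122 and 187 CPM to 1012 and 1322 CPM. Lcn2 also rose from day 10 to day 20 of UB organoids, by 2.28 ± 0.24 in log2 (edgeR adjusted p = 1.35e-05). In CD organoids over day 20, Lcn2 did not pass (0.63 ± 0.23, edgeR adjusted p = 0.04045). Tsc22d3, which encodes GILZ, was at 53.6 and 36.1 CPM at day 10 and 45.1 and 40.7 CPM in CD organoids and did not pass (log2 fold change -0.06, adjusted p = 0.769). Against day 20, 7 of the 13 rose and 3 fell (16.8% and 17.1% of all genes), Dusp1 among the latter with -4.28. Against adult mCD, 11 were lower and Lcn2 was higher (21.6% and 18.6% of all genes). Dusp1, a phosphatase, stood at 513 and 516 CPM in adult mCD and 9.61 and 9.70 CPM in CD organoids, and Klf9, a transcription factor, at 331 and 342 against 23.3 and 26.3 CPM. Errfi1, a feedback inhibitor of the EGF receptor, was at 735 and 746 against 92.7 and 102 CPM. The listed UB medium names no aldosterone, and the part of the hormone in the changes within UB organoids was not tested. Within UB organoids, 3 of the 13 rose and 6 fell from day 5 to day 10 (10.5% and 11.8% of all genes). From day 10 to day 20, 7 rose and 4 fell (8.76% and 9.93% of all genes).

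**Figure D4:**
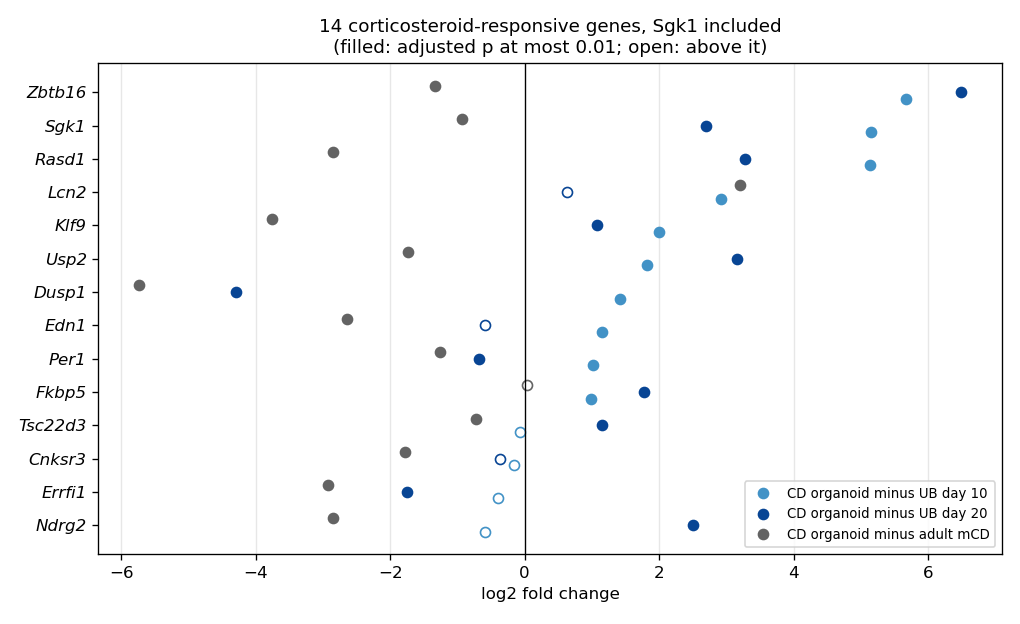
Log2 fold changes of 14 corticosteroid-responsive genes, Sgk1 included, in CD organoids against UB organoids of day 10 (light blue), UB organoids of day 20 (dark blue) and adult mCD (grey), filled where the adjusted p is at most 0.01. Zbtb16, Sgk1 and Rasd1 have the largest changes over day 10, and Dusp1 is lower than at day 20 and than in adult mCD.

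Of the 13 genes for principal cell transport, 9 rose in CD organoids over day 10, each more than 4-fold, and 0 fell, with a median log2 fold change of 4.53, where 18.1% of all genes rose and 4.96% did so more than 4-fold. Aqp2, the vasopressin-regulated water channel, rose from 0.238 and 0.255 CPM to 632 and 485 CPM, and Fxyd4, which modulates the sodium pump, from 4.28 and 3.83 CPM to 207 and 189 CPM. Kcnj16, a potassium channel subunit, rose from 4.6 and 3.1 CPM to 262 and 268 CPM. Kcnj1, the secretory potassium channel ROMK, was at 0.712 and 2.17 CPM in CD organoids and 992 and 974.5 CPM in adult mCD. Kcnj10, a basolateral potassium channel, was at 2.28 and 2.25 CPM against 440.0 and 424 CPM. Aqp3, the basolateral water channel, was at 23.6 and 19.0 CPM against 1948 and 1891 CPM. All PC markers summed above but Elf5 are also in this list, so that its counts are not separate from their sums.

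Across the 10 libraries, which share 5 groups of 2, log2 CPM of the members were compared as a description. The highest correlation between members was that of Hsd11b2 with Prss8 (Pearson r = 0.987), followed by Nr3c2 with Sgk1 (0.978), and the lowest that of Scnn1g with Sgk1 (0.533). Among 11831 genes with a mean of at least 5 CPM, the patterns of H1f2 (0.997) and Cgnl1 (0.996) were among the 3 most like that of Scnn1a. Those most like Scnn1g were Ppa2 (0.990), Actr1b (0.989) and H2-Q4 (0.988), and most like Sgk1 were Arf2 (0.995), Mir22hg (0.995) and Plekha3 (0.995). For Nr3c2 they were Cdkl1 (0.998), Tmbim6 (0.997) and Sec62 (0.996), and for Hsd11b2 Myo1c (0.996), Cox6b1 (0.995) and Chchd3 (0.994). For Scnn1b they were Klhdc8a (0.997), Peli2 (0.996) and Nipal1 (0.994), for Nedd4l Taldo1 (0.997), Cdc42 (0.996) and Anxa4 (0.994), and among the 3 for Prss8 were Asah2 (0.994) and Acox3 (0.994).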

How the data were processed

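The deposited table holds 3 values per gene and library. For read counts, the study's methods describe Partek Flow, with STAR alignment to mm10, GENCODE M24 and Partek's E/M model. The labels list other tools and do not name Partek. Which of the 2 routes made the deposited counts is not known here. RPKM were computed by the authors with a length that, for 98.2% of genes, equals the GENCODE M21 exons of all transcripts added up plus 1 per exon. The third value is a signal, counts scaled by the authors to a common library total and called TMM values, and was not tested here. Per the labels, the processing notes list FastQC 0.11.8, cutadapt 2.5, Trimmomatic 0.36, STAR and edgeR 3.28.1. For RNA and libraries, the kits were QIAgen RNeasy and Illumina TruSeq in the labels but Direct-zol and KAPA Stranded in the methods.

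For the tests here, edgeR 4.0.16 (R 4.3.3) was run on the counts in its quasi-likelihood form (TMM factors, prior count 1, Benjamini-Hochberg adjustment over 24410 genes with at least 10 counts in total, all 10 libraries in one fit of group means). A gene passed at an adjusted p of at most 0.01. Standard errors are the log2 fold change over the root of F and are approximate. Depth was 11913613 to 24536676 counts. Per-length levels divide CPM by merged GENCODE M21 exons, a choice made after seeing the data. Ratios were tested by exact permutation in scipy 1.17.1. Lists name the 3 largest rises and falls past 4-fold with a mean of at least 5 CPM, and the 3 nearest patterns per member, while Tsc22d3 and the levels of Avpr2 were named after their values were seen, and a few genes that this rule names are not reported here. Motifs were searched on both strands of the 250 bases before RefSeq starts. Alternatives changed scaling, filter, prior count, threshold, libraries, a replicate block and the tool (DESeq2 1.42.0, limma 3.58.1 on log2(RPKM + 1)). On simulated data for CD organoids against day 10, 199 of 200 changed genes were recovered among 24136, with 3 false calls. The simulation gave all genes and libraries the common dispersion of 0.00831 and changed only genes above 5 CPM. In the real replicates, the mean chi-square per gene against counting error was 29 at day 10 and 2.93 in CD organoids. The simulation did not hold this difference, so its figures do not show how the test does on the day 10 libraries. The members and lists were chosen with earlier results of these data known.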

Additional observations from a re-analysis of the deposited data

How the results depend on the processing

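In the comparisons with CD organoids or adult mCD, no member changed direction and only the call of Scnn1g against day 10 depended on the setting. It passed with RLE size factors (adjusted p = 0.00642), without a filter on low counts, with the replicate block (0.0087) and without day 10 replicate 1. Over all comparisons, 775 member values kept their direction and call, 22 lost the call, 17 gained it and 18 changed sign, the last all among UB organoids and none passing. The cause was not tested.

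Leaving out each library gave 7 to 8 passing members for CD organoids against day 10, 8 in each other comparison with CD organoids or adult mCD, 4 to 6 for day 10 against day 5, 2 to 4 for day 20 against day 10 and 4 to 5 for day 20 against day 5. With day 10 replicate 2 left out, 4 passed from day 10 to day 20, Scnn1a (1.49) and Scnn1g (-1.04) included. At more than 4-fold, the counts were 3 against adult mCD, 1, 1 and 2 for these UB steps. From day 5 to day 10, the fit of only the 2 groups gave 1 and limma 0 passing members, beside 5 in edgeR. From day 10 to day 20, 4 passed with no filter or at 0.05, and 1 with limma. From day 5 to day 20, limma gave 3.

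Prss8 from day 5 to day 10 (-0.00 in log2) was 0.14 with library totals, 0.022 with filterByExpr, 0.0086 with only the 2 groups, 0.00093 with limma and -0.076 to 0.087 with each library left out. From day 10 to day 20, Nedd4l was 0.036 with RLE factors, 0.0012 with no filter, 0.037 with filterByExpr, 0.050 with only the 2 groups, 0.015 with limma, 0.036 with DESeq2 and -0.079 to 0.089 with each library left out, a range that was -0.36 to 0.083 for Scnn1b and -0.96 to 0.41 for Hsd11b2. For Scnn1a from day 5 to day 20 it was -0.56 to 0.081.

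For the subunit ratios, day 10 alone gave -3.30 for Scnn1b in CD organoids and -4.42 in adult mCD, and day 20 alone -3.41 and -3.35 for Scnn1g. Leaving out each library gave -2.80 to -2.40, -4.41 to -4.01, -3.92 to -3.52 and -4.35 to -3.96, and with 1 CD or adult library no p under 0.143 is possible. With merged exon lengths, added after seeing the data, they were -3.29, -4.89, -4.42 and -4.85. With the smaller tail doubled, the ratio tests gave p = 0.0714 by exact permutation.

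The replicate numbers did not pair the libraries (correlations of deviations -0.0162 to 0.0809), and the block gave 8 passing members for CD organoids against day 10 and changed no other call. Library totals without a composition factor moved the median of all genes to 0.34 in CD organoids against adult mCD, where Nedd4l was then 0.95.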
